A study of Drosophila melanogaster with 2 samples.

Results

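Segment polarity genes form the last tier of the Drosophila segmentation cascade, and 7 of them were followed here: engrailed (en), invected (inv), wingless (wg), hedgehog (hh), gooseberry (gsb), patched (ptc) and cubitus interruptus (ci). They were chosen by gene symbol, and 6 of the 7 were among the 7629 genes of the normalized table; inv was not in it. The table holds 84 single embryos of the wild-type inbred line DGRP-737 (a line of the Drosophila Genetic Reference Panel), up to 3 h old and kept at 25 °C, which the authors placed in pseudo-time, an order of embryos by transcriptome similarity. Embryos came from 2 cages (47 from cage A, 37 from cage B) and from 3 collection intervals, read from the embryo names: 28 embryos from 0 to 1 h, 33 from 1 to 2 h and 23 from 2 to 3 h. By genotype of the X and Y chromosomes, 30 embryos were female and 31 male, and 23 were not genotyped. The authors divided the embryos into 8 clusters, called 1 to 7 and last here, with 29, 11, 6, 3, 9, 7, 10 and 9 embryos.

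The cascade runs from maternal gradients through gap and pair-rule genes to the segment polarity genes, which divide each segment into an anterior and a posterior part and hold that division after the pair-rule stripes fade. In cells that make the homeodomain factors En and Inv, the secreted signal Hh is produced. Neighbouring cells receive it through the receptor Ptc, which restrains the transducer Smo until Hh binds. The zinc finger factor Ci then activates targets that include ptc itself and wg. The secreted Wg signal in turn maintains en expression in the adjacent row, and Gsb, a paired-domain and homeodomain factor, is part of the loop that maintains wg.

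In release 6 of the genome, en lies on chromosome 2R from 11524006 to 11528210 on the minus strand, and inv on 2R from 11474465 to 11509695 on the plus strand. They are 14.3 kb apart with 0 annotated genes between them. The other members on 2R are ptc (8649649 to 8665223, plus strand) and gsb (25061964 to 25064643, plus strand). wg lies on 2L from 7307159 to 7316265 (plus strand), hh on 3R from 23128169 to 23141906 (minus strand) and ci on chromosome 4 from 47710 to 57041 (minus strand). All 7 are protein-coding. One annotated non-coding RNA of the table, asRNA:CR43957, overlaps ci on the opposite strand. It averaged at most 0.504 normalized counts in any cluster.

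Each embryo had between 274491 and 2105275 unique molecular identifier (UMI) counts, with a median of 932058, and between 5933 and 7389 genes with a UMI. Levels are given as normalized UMI counts, that is UMIs scaled to the smallest embryo total of 274491; a single UMI is thus worth 1 in the shallowest embryo and less in all others. Molecules are counted at the 3' end, so that each member is compared with itself across embryos and not with the others. RNA was taken from whole embryos, in which fewer expressing cells and less RNA per cell cannot be told apart. The maternal marker dhd averaged 5.29 in the last cluster and 676 in cluster 1, and the neural marker SoxN averaged 94.4 in the last cluster and 0.252 in cluster 1. None of the 6 chorion genes, which mark follicle cells, was in the table. In the raw libraries, Cp18 had 37 UMIs in 24 of the 122 barcodes with at least 250000 UMIs. Cp38 had 1 UMI there and the other chorion genes 0. These barcodes were not tied to embryos. The clusters were built by the authors from these same expression values, so that a p-value between clusters does not compare groups set independently of the data.

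All 6 measured members were higher in the last cluster than in cluster 1, but they did not get there together. ptc was first and was near its maximum by cluster 6. ci climbed through clusters 5 to 7. wg stepped up in cluster 4, had no called step into cluster 5, and climbed from cluster 6 to the last cluster. en and gsb stayed at a few UMIs until the end of cluster 7 and then appeared within a few positions of pseudo-time. hh already had a UMI in 9 of 10 embryos of cluster 7, at a low median of 1.21, and was highest in the last cluster. As a description of that order, a median running over 5 neighbouring embryos crossed 20% of its highest value at position 50 for ptc, position 60 for ci, position 71 for wg and position 75 for en, hh and gsb. The median of this measure was position 73 in the 6 members, against position 50 in the 9 pair-rule genes, which ranged between positions 43 and 69.

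**Figure D1:**
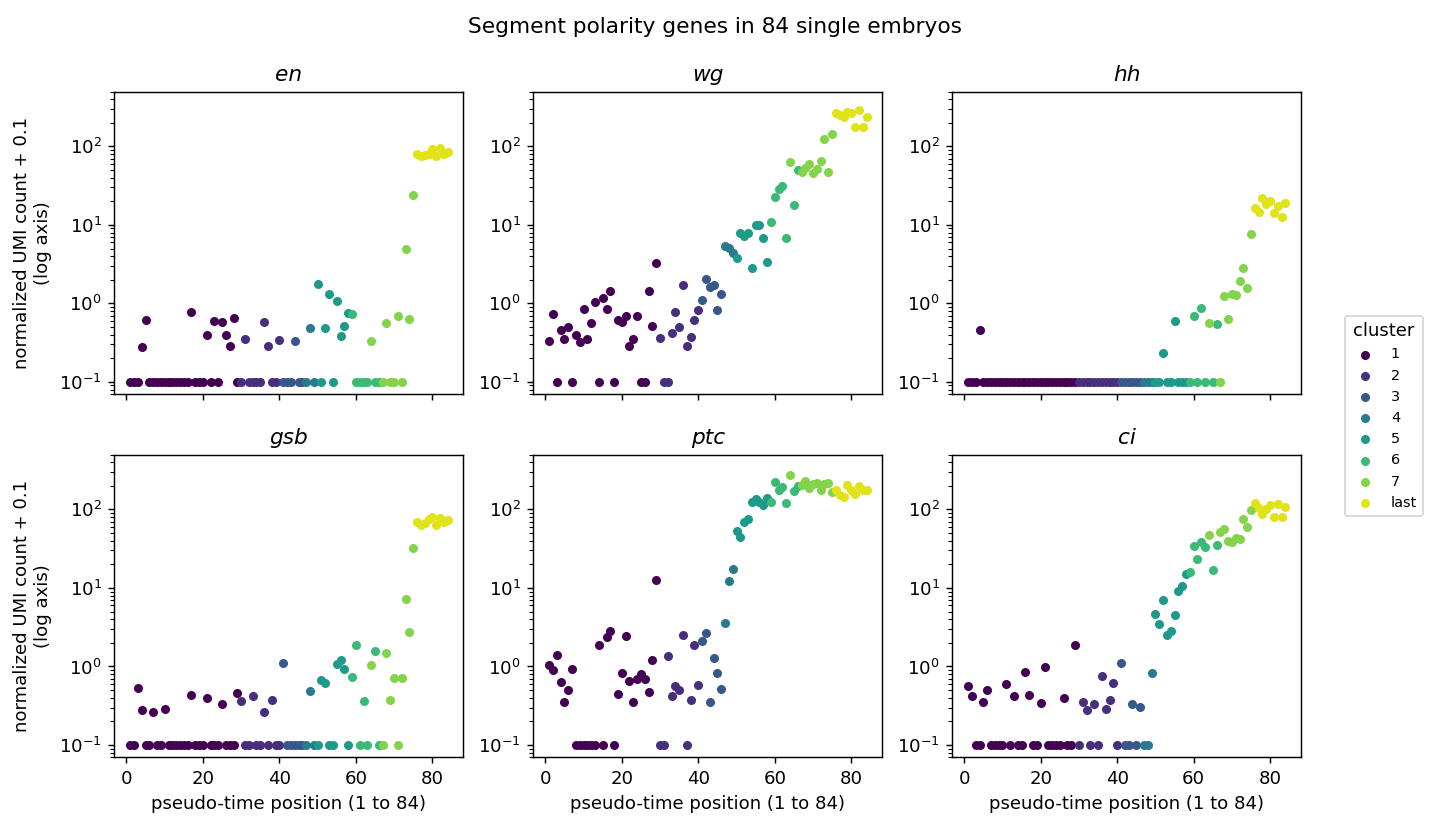
Normalized UMI count plus 0.1 (log axis) of the 6 members in each of the 84 embryos against pseudo-time position, with 1 dot per embryo coloured by cluster. ptc leaves its floor near position 50, ci and wg follow, and en and gsb rise only from about position 73. hh has low levels of up to 1.82 in the cluster 7 embryos other than those at positions 73 and 75. The row of dots at 0.1 holds embryos without a UMI.

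The Hh receptor gene ptc was detected from the start. A ptc UMI was found in 21 of 29 embryos of cluster 1, with a lowest, median and highest level of 0, 0.552 and 12.5. Of the 104 ptc UMIs of cluster 1, 35 were in the highest embryo, at position 29. In cluster 4 its levels were 3.48, 12.0 and 17.2, against 0.249 to 2.58 in the 6 embryos of cluster 3, so that these clusters did not overlap. Cluster 5 had 44.5, 115 and 140 (lowest, median and highest) and again lay wholly above cluster 4. Cluster 5 averaged 98.1 ± 37.6 (SD, n = 9) and cluster 6 averaged 172 ± 37.9 (n = 7). The mean was 210 ± 30.5 over the 10 embryos of cluster 7, and 174 ± 19.9 over the 9 embryos of the last cluster. ptc was therefore the 1 member whose highest mean was not in the last cluster.

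The rise of ptc passed the test in both of its steep steps. edgeR's quasi-likelihood test, with Benjamini-Hochberg adjustment and calls only where the adjusted p was under 0.01 and the log2 fold change over 1 in size, gave a log2 fold change of 3.53 ± 0.51 (SE) for cluster 4 against cluster 3 (adjusted p = 1.8e-06), and 3.46 ± 0.44 for cluster 5 against cluster 4 (adjusted p = 1.0e-06). With limma on log2 normalized counts the first of these was not called (3.17 ± 0.78, adjusted p = 0.027). Against cluster 5, cluster 6 had a smaller difference of 0.87 ± 0.19, with an adjusted p of 0.00079 but below the fold required for a call. The last cluster differed from cluster 7 by a log2 fold change of -0.38 ± 0.10 (adjusted p = 0.0011), also too small for a call, and the 2 clusters overlapped.

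ci, which encodes the transcription factor at the end of the Hh pathway, was the second member to reach 20% of its maximum, although its first called step came after that of wg. It had 1 UMI in the 3 embryos of cluster 4 and 175 UMIs in the 9 embryos of cluster 5, where every embryo had one. Its levels in cluster 5 were 2.41, 4.54 and 15.1 (lowest, median and highest), against 0, 0 and 0.717 in cluster 4. Because cluster 4 had so few, the ratio of pooled counts was 49.6 with an exact 95% counting interval of 8.78 to 1969, which covers counting error only (adjusted p = 5.2e-05 by edgeR). The mean of ci was 28.3 ± 9.36 in cluster 6 (SD, n = 7), a log2 fold change of 2.19 ± 0.25 over cluster 5 (adjusted p = 7.4e-08), and it was 55.3 ± 18.9 in cluster 7 and 101 ± 16.1 in the last cluster. Each of these last steps was below 1 on the log2 scale (0.86 ± 0.18 for cluster 7 against cluster 6, adjusted p = 0.0027; 0.77 ± 0.14 for the last cluster against cluster 7, adjusted p = 1.6e-05) and so was not called. ci in cluster 7 still lay wholly above cluster 6.

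The secreted signal gene wg was spread over more of pseudo-time than any of the others in these calls, with 4 called steps. A wg UMI was found in 23 of 29 embryos of cluster 1, at a mean of 0.536 ± 0.637 (SD). In cluster 4 its 3 embryos had 4.30, 5.04 and 5.22, above all 6 embryos of cluster 3, which had 0.733 to 1.94 (log2 fold change 1.92 ± 0.42, adjusted p = 0.00059 by edgeR), a difference that was not called with all 84 embryos in 1 fit (adjusted p = 0.011). From cluster 4 to cluster 5 no difference was called (0.61 ± 0.35, adjusted p = 0.16). Cluster 6 then averaged 23.9 ± 14.3, cluster 7 averaged 69.9 ± 34.5 and the last cluster 242 ± 41.2. Each of those steps was called, with log2 fold changes of 1.90 ± 0.27 for cluster 6 against cluster 5 (adjusted p = 2.7e-06), 1.42 ± 0.28 for cluster 7 against cluster 6 (adjusted p = 0.0012) and 1.68 ± 0.18 for the last cluster against cluster 7 (adjusted p = 1.8e-09). In the last cluster the lowest, median and highest levels of wg were 174, 254 and 290, all above the highest of cluster 7, 142.

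**Figure D2:**
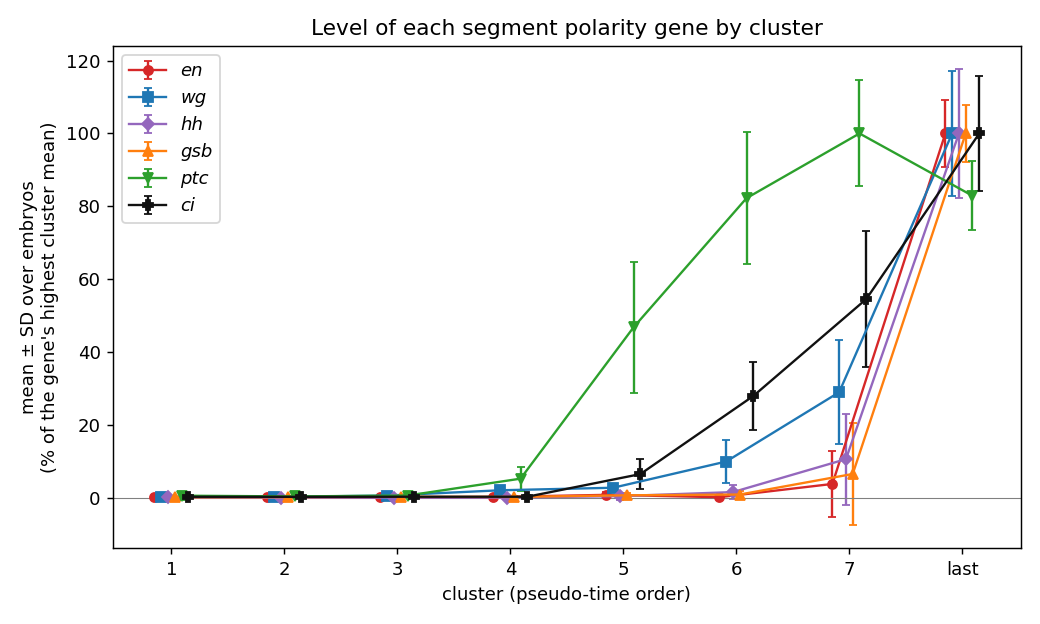
Mean normalized count of each member by cluster, as a percentage of the gene's own highest cluster mean, with bars of 1 SD over the embryos of the cluster (3 to 29). ptc reaches 46.8% in cluster 5 and its maximum in cluster 7, while en and gsb stand at 3.75% and 6.49% in cluster 7 and at 100% in the last cluster.

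en, the homeodomain gene that marks the posterior compartment, was close to absent before the end of cluster 7. Clusters 1 to 4 held 24 en UMIs in all 49 of their embryos, with no embryo above 0.677. Cluster 5 had 16 UMIs in 7 of its 9 embryos, with a mean of 0.621 ± 0.561, and cluster 6 had 1 UMI in 7 embryos; the lower value in cluster 6 was not called (adjusted p = 0.027 by edgeR), while the ratio of pooled counts, 0.103, had a 95% counting interval of 0.00245 to 0.660. Of the 10 embryos of cluster 7, 8 had between 0 and 0.597, the embryo at position 73 had 4.90, and the embryo at position 75 had 24.1. The last cluster was tight, with 74.3, 79.0 and 95.4 as its lowest, median and highest levels. No embryo of any other cluster came near it.

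gsb, the paired-domain gene that acts with wg, behaved much like en in these counts. Clusters 1 to 4 held 14 gsb UMIs in 14 embryos. In cluster 7, 8 embryos had between 0 and 2.65, while those at positions 73 and 75 had 7.08 and 32.4. In the last cluster its lowest, median and highest levels were 64.0, 70.0 and 80.2, a coefficient of variation of 7.86% over 9 embryos.

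hh, which encodes the ligand of Ptc, had the fewest counts. In cluster 1 it had 2 UMIs, both in the same embryo, and in clusters 2, 3 and 4 it had 0 UMIs in 20 embryos; the limit of 3 counts over a whole cluster corresponds to a normalized level of 0.0612 in cluster 2, 0.162 in cluster 3 and 0.404 in cluster 4. Cluster 5 had 3 UMIs in 2 embryos and cluster 6 had 6 UMIs in 3 embryos. In cluster 7, 9 of 10 embryos had a hh UMI, at levels of 0, 1.21 and 7.52 (lowest, median and highest). In the 8 cluster 7 embryos other than those at positions 73 and 75, hh was at 0 to 1.82 (at most 11 UMIs). In the same 8 embryos en was at 0 to 0.597 (at most 4 UMIs), and which of the 2 genes came first was not tested. In the last cluster it had 12.4, 17.5 and 21.6.

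For all 3 of these genes, and for wg, the last cluster lay wholly above cluster 7. The log2 fold change was 4.74 ± 0.47 for en (adjusted p = 2.8e-10), 3.87 ± 0.44 for gsb (adjusted p = 4.5e-09) and 3.21 ± 0.30 for hh (adjusted p = 7.3e-11) by edgeR. The fold of en and gsb depended on the 2 embryos at positions 73 and 75: without both of them, an alternative chosen after seeing the data, it was 7.88 ± 0.22 for en, 5.82 ± 0.21 for gsb, 4.00 ± 0.24 for hh and 2.06 ± 0.12 for wg. Of the 6 members, 4 were called higher in the last cluster than in cluster 7, where 21.1% of all 7619 tested genes were called higher and 15.8% lower. None of the 6 was called lower.

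**Figure D3:**
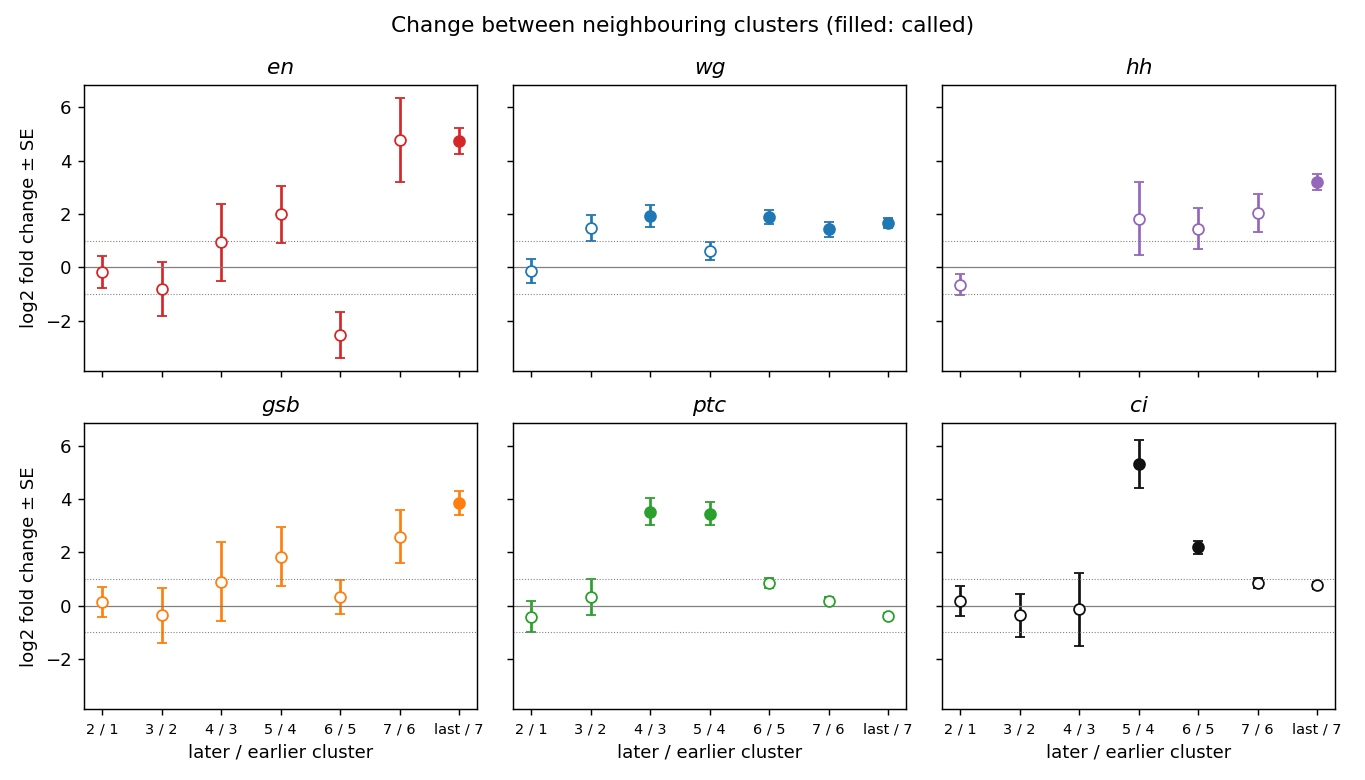
Log2 fold change (± SE, edgeR) of each member between neighbouring clusters, later over earlier; filled circles passed an adjusted p of 0.01 and the fold marked by the dotted lines at 1 and -1, and hh has no value where both clusters had 0 UMIs. ptc and ci have their called steps at cluster 4, 5 or 6, wg has 4 called steps, and en, hh and gsb have theirs only between cluster 7 and the last cluster.

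The remaining steps can be read against the background in the same way. Between clusters 2 and 1 none of the 6 members was called in either direction by edgeR, and 0 had an unadjusted p below 0.05; 1.01% of all genes were called higher and 3.85% lower. Cluster 3 against cluster 2 also had no call among the members (1.23% of genes higher, 2.21% lower), and wg had the lowest p (log2 fold change 1.47 ± 0.49, adjusted p = 0.042). In cluster 4 against cluster 3, 2 of 6 members were higher, ptc and wg, and 0 lower, against 2.61% of genes higher and 10.2% lower. In cluster 5 against cluster 4 they were ptc and ci, again with 0 lower, against 4.38% of genes higher and 15.6% lower. In cluster 6 against cluster 5 they were wg and ci, with 0 lower, against 3.79% of genes higher and 5.62% lower. In cluster 7 against cluster 6 only wg was higher and 0 were lower, against 0.984% of genes higher and 1.19% lower. In that last of these steps en, hh and gsb had adjusted p-values of 0.045, 0.057 and 0.082. They passed when all 84 embryos shared a single fit, with adjusted p-values of 0.00071 for en, 0.0023 for hh and 0.0014 for gsb; without the embryos at positions 73 and 75 in the main fit, en had a log2 fold change of 1.55 ± 0.93 (adjusted p = 0.36).

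Over the whole series, all 6 members were called higher in the last cluster than in cluster 1, where 27.1% of all genes were higher and 26.5% lower. The log2 fold changes were 9.87 ± 0.14 for gsb, 9.35 ± 0.15 for en, 9.33 ± 0.17 for ci, 9.25 ± 0.14 for wg and 7.99 ± 0.22 for ptc. For hh, with 410 UMIs in the last cluster and 2 in cluster 1, the ratio of pooled counts was 999, with an exact 95% counting interval of 275 to 8280.

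The 2 embryos at positions 73 and 75 were the only ones that stood between low and full levels of en and gsb, and they were singled out after their values were seen. The embryo at position 73 was a female from the 2 to 3 h interval and cage B, with 18 UMIs of en, 26 of gsb and 10 of hh. As a percentage of the mean of the last cluster, it had 5.95% of en, 9.99% of gsb, 15.9% of hh, 51.9% of wg, 75.4% of ci and 120% of ptc. The embryo at position 75 was a male from the 0 to 1 h interval and cage B, with 61 UMIs of en, 82 of gsb and 19 of hh. Its percentages were 29.3% of en, 45.8% of gsb, 43.8% of hh, 58.8% of wg, 96.7% of ci and 97.1% of ptc.

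In both embryos en stood lowest among the members by this measure, and ptc and ci highest. The 95% counting intervals of en and gsb at position 75 (18.458 to 30.998 and 25.8 to 40.3 normalized counts) lay below every embryo of the last cluster. The embryo at position 74, between them, had 0.529 of en, 2.65 of gsb, 1.46 of hh and 46.8 of wg, close to the other embryos of cluster 7. The T-box gene mid, which also acts in segment patterning, had 21.5 at position 73 and 66.5 at position 75, against 0 to 2.51 in the 8 other embryos of cluster 7.

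**Figure D4:**
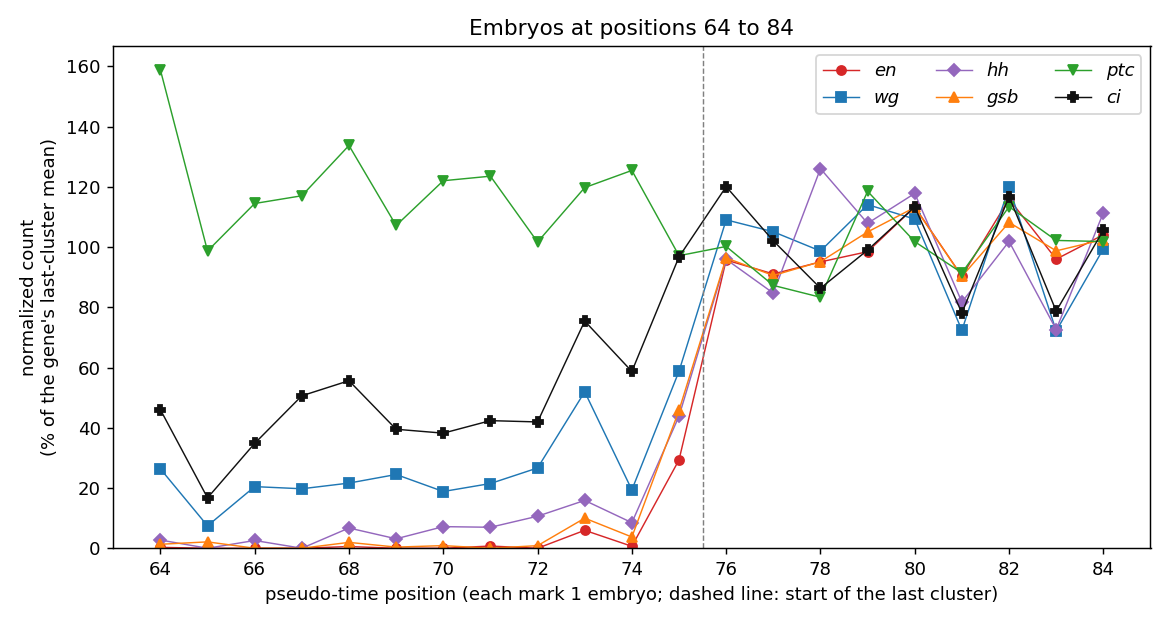
Level of each member in the embryos at positions 64 to 84, as a percentage of the gene's mean in the last cluster, with 1 mark per embryo and the start of the last cluster as a dashed line. The embryo at position 75 has 29.3% of en but 96.7% of ci. From position 76 on the members centre on the same level by construction, since each is scaled to its own mean there. They still spread, with wg at 72.1% and ptc at 102% at position 83.

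Within the last cluster the coefficient of variation between embryos was 7.86% for gsb, 9.25% for en, 11.4% for ptc, 15.9% for ci, 17.1% for wg and 17.8% for hh; these were not tested against each other. For hh, with the fewest counts, the SD was 3.05 and counting alone would give 2.60. The embryos at positions 81 and 83 had 175 and 174 of wg, while the 7 others had 238 to 290. The same 2 embryos were the lowest of the 9 for ci (79.2 and 79.8) and for hh (14.0 and 12.4). Their en levels of 74.3 and 79.0 and gsb levels of 64.0 and 70.0 lay within the range of the others or just below it.

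The collection interval is a grouping that does not use expression, but it spans much of pseudo-time: 5 of 28 embryos from 0 to 1 h were in cluster 5 or later, as were 7 of 33 from 1 to 2 h and 23 of 23 from 2 to 3 h. Of the 9 embryos of the last cluster, 3 came from 0 to 1 h, 1 from 1 to 2 h and 5 from 2 to 3 h. ptc was high in every embryo of the last interval. Its lowest, median and highest levels were 0, 0.542 and 197 at 0 to 1 h, 0, 1.78 and 233 at 1 to 2 h, and 44.5, 159 and 276 at 2 to 3 h. For ci the medians in the same order were 0, 0.249 and 33.3, and for wg 0.474, 1.00 and 22.4. The median of en was 0, 0 and 0.391, while its highest embryos had 95.4, 79.0 and 93.3.

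In the comparison of 2 to 3 h with 0 to 1 h, 1 of 6 members was called higher, with 7.90% of all genes called higher and 31.1% lower. It was ptc, with a log2 fold change of 2.40 ± 0.83 (adjusted p = 0.0074 by edgeR), and it was not called within cage A alone (2.83 ± 1.20, adjusted p = 0.033) or cage B alone (1.84 ± 1.21, adjusted p = 0.19). The other 5 had log2 fold changes between 0.84 and 1.46, with adjusted p-values of 0.099 for ci, 0.19 for wg, 0.30 for hh, 0.35 for gsb and 0.38 for en.

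Against 1 to 2 h, the embryos of 2 to 3 h had 4 of 6 members called higher, with 8.06% of all genes higher and 26.4% lower. These were hh (3.02 ± 0.81, adjusted p = 0.00070), en (2.94 ± 0.91, adjusted p = 0.0031), gsb (2.86 ± 0.88, adjusted p = 0.0031) and wg (2.28 ± 0.80, adjusted p = 0.0089). With cage as a covariate wg was not called (2.23 ± 0.80, adjusted p = 0.011), and by DESeq2 hh was not (2.84 ± 1.45, adjusted p = 0.068), so that 3 members remained called in each, while DESeq2 gave larger log2 fold changes for en (7.26 ± 1.16) and gsb (6.17 ± 1.12). In cage A alone, en, hh and gsb were called and wg was not (adjusted p = 0.054); in cage B alone none of the 6 was, with adjusted p-values of 0.28 for en, 0.18 for wg, 0.11 for hh and 0.28 for gsb. The means rest on the last cluster, which held 5 of 23 embryos at 2 to 3 h and 1 of 33 at 1 to 2 h. Between 1 to 2 h and 0 to 1 h no member was called (0.512% of genes higher, 4.32% lower). The 2 comparisons against 0 to 1 h share those embryos.

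**Figure D5:**
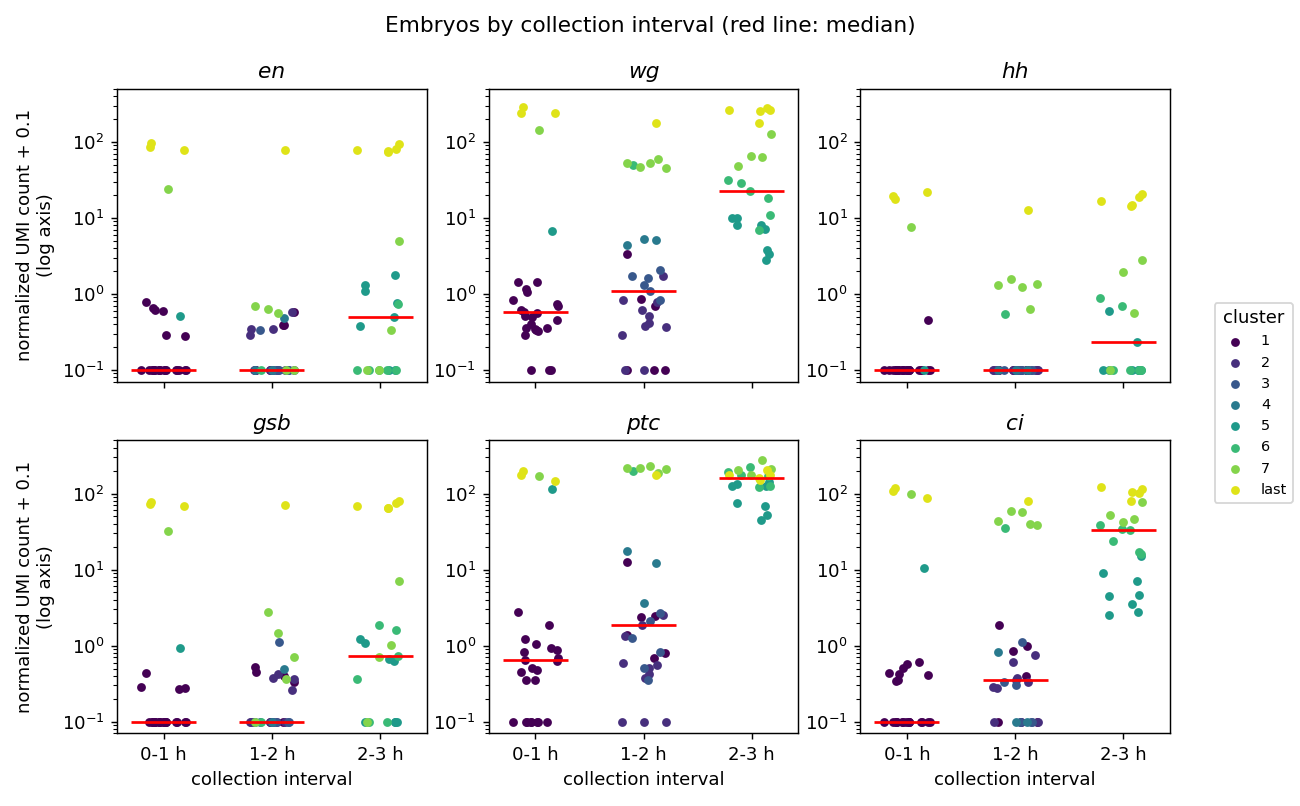
Normalized UMI count plus 0.1 (log axis) of each member by collection interval, with 1 dot per embryo coloured by cluster and a red line at the median. Every interval holds embryos of the last cluster at full en levels, and all embryos of 2 to 3 h have at least 44.5 of ptc.

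Embryos of the last cluster from 0 to 1 h and from 2 to 3 h had overlapping levels. The 1 embryo from 1 to 2 h, at position 83, was not compared. It had the lowest wg (174) and hh (12.4) of the cluster. The 3 from 0 to 1 h had 78.2, 85.6 and 95.4 of en, and the 5 from 2 to 3 h had 74.3 to 93.3. For wg the 3 embryos from 0 to 1 h had 238 to 290, and the 5 from 2 to 3 h had 175 to 276. None of the 6 members was called between them by edgeR, where 1 of 7619 genes (0.0131%) was. The log2 fold changes of 0 to 1 h over 2 to 3 h were small, from -0.01 ± 0.14 for ptc to 0.19 ± 0.20 for hh, and the number of members with an unadjusted p below 0.05 was 0.

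Neither cage nor sex gave a call among the members. Between cage A and cage B, with cluster in the model, 0 of 7619 genes were called by edgeR or DESeq2, and 451 had an unadjusted p below 0.05 by edgeR. en (-0.63 ± 0.25), gsb (-0.59 ± 0.25) and ci (-0.33 ± 0.12) had unadjusted p-values of 0.014, 0.018 and 0.0078, and adjusted p-values of 0.83 each. No difference between cages in the effect of the interval was called for any member by edgeR (adjusted p of 1.00 for each, 0 genes called and 192 at an unadjusted p below 0.05).

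Over the 61 genotyped embryos, 31 genes (0.407%) differed between female and male embryos at an adjusted p below 0.01, and none was a member. The lowest unadjusted p-values were 0.0025 for en, 0.0074 for gsb and 0.014 for ptc (adjusted p = 0.17, 0.30 and 0.43 by edgeR). In cluster 5, ptc was 126, 126 and 135 in 3 female embryos, against 44.5 to 140 in 6 male embryos. The females were at positions 54 to 56. Males at positions 50 to 53 had 44.5 to 74.8, and those at 57 and 58 had 115 and 140, so that sex and position were not separated. In cluster 7 the highest en and gsb (24.1 and 32.4) were those of the male at position 75, and the next (4.90 and 7.08) those of the female at position 73. In the last cluster en was 74.3 to 95.4 in 5 female embryos, against 74.9 to 81.0 in 4 male embryos. Embryos were not assigned to libraries here, so that library was not a term in this test.

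Most other genes of the Hh and Wg pathways were supplied maternally and moved less. Exceptions in the Wg pathway were Notum and nkd, with means of only 0.148 and 1.70 in cluster 1. Of 12 tested genes of the Hh pathway other than the members, 2 were called higher and none lower in the last cluster against cluster 1, with a median log2 fold change of 0.43, against 0.04 over all genes, of which 27.1% were higher and 26.5% lower. The 2 were smo, the transducer that Ptc restrains (1.78 ± 0.07, adjusted p = 3.0e-28), and ihog, a co-receptor of Hh (1.14 ± 0.08, adjusted p = 1.2e-18). smo peaked before the end, with 53.4 ± 8.05 in the last cluster and 117 ± 21.6 in cluster 7 (log2 fold change -1.24 ± 0.10, adjusted p = 5.5e-12). ihog took the opposite course: it fell to 1.74 ± 0.72 in cluster 5, against 5.10 ± 2.37 in cluster 4, and stood at 33.8 ± 3.39 in the last cluster and 8.43 ± 3.32 in cluster 7. At 2 to 3 h against 0 to 1 h, where 7.90% of all genes were higher and 31.1% lower, smo was higher (1.43 ± 0.25), and rasp, the acyltransferase that lipid-modifies Hh (-1.80 ± 0.38), slmb (-1.55 ± 0.22), an F-box protein that directs Ci processing, and boi, another Hh co-receptor (-1.53 ± 0.21), were lower.

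Of 13 genes of Wg reception and transduction, 7 were higher and 0 lower in the last cluster against cluster 1, with a median of 1.37 on the log2 scale; over all genes it was 27.1% higher and 26.5% lower. The largest differences were those of Notum, a secreted feedback inhibitor of Wg (7.94 ± 0.19), nkd, an intracellular feedback inhibitor (7.44 ± 0.21), and the receptor gene fz2 (5.45 ± 0.17). Notum had its highest mean in cluster 5, 54.2 ± 15.0, when wg was at 6.53 ± 2.71. nkd averaged 187 ± 34.4 in the last cluster and 186 ± 31.5 in cluster 7. At 2 to 3 h against 0 to 1 h, Notum (3.02 ± 0.67), nkd (2.28 ± 0.78) and pan, the TCF factor of the pathway (1.86 ± 0.45), were the 3 of 13 called, all higher (7.90% of all genes were higher).

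Pair-rule genes, which act upstream of the segment polarity genes, had all 9 members higher in the last cluster than in cluster 1 (median log2 fold change 6.92; 27.1% of all genes were higher), led by slp1 (9.44 ± 0.15), slp2 (8.11 ± 0.19) and odd (7.70 ± 0.18). Against cluster 7, 7 of the 9 were lower in the last cluster and 1 higher, with 15.8% of all genes lower and 21.1% higher. prd, whose stripes precede those of en and gsb, averaged 4.73 ± 3.63 in the last cluster and 53.4 ± 15.9 in cluster 7, and odd averaged 33.9 ± 6.59 in the last cluster and 82.2 ± 16.3 in cluster 7. The 1 called higher was slp2, with 29.5 ± 8.08 in the last cluster and 8.08 ± 1.74 in cluster 7 (1.77 ± 0.16, adjusted p = 1.7e-11). slp1 averaged 87.2 ± 12.1 in the last cluster and 41.3 ± 28.05 in cluster 7 (0.96 ± 0.21, adjusted p = 0.00021), short of the fold required for a call. The cluster 7 mean of slp1 was raised by the embryos at positions 73 and 75, with 72.1 and 109. The 8 other embryos of cluster 7 had 18.7 to 40.6. At 2 to 3 h against 0 to 1 h, 7 of 9 pair-rule genes were higher, against 7.90% of all genes, led by eve (3.62 ± 0.65), h (3.59 ± 0.77) and ftz (3.40 ± 0.71). mid was higher in the last cluster than in cluster 1 (9.17 ± 0.19), and lin, the other segment gene tested, was not called.

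Among all 7619 tested genes, the pattern most like that of each member over the 84 embryos was looked up by Pearson's r of log2 normalized counts, as a description of embryos that share depth and pseudo-time. For en these were C15 (0.909), ImpL2 (0.889) and Esp (0.887), and for hh they were ImpL2 (0.934), Optix (0.925) and CG13784 (0.925). gsb was most like ImpL2 (0.915), hh (0.903) and CG32486 (0.900). ImpL2 averaged 477 in the last cluster and 30.1 in cluster 7. wg was most like trn (0.951), emc (0.946) and ed (0.942), ci was most like Ama (0.956), drk (0.952) and fax (0.951), and ptc was most like CG15628 (0.969), hth (0.968) and fkh (0.967). hh was the only member among the 3 genes most like another member.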

How the data were processed

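Single embryos were profiled with a modified CEL-Seq2 protocol, a 3' method with UMIs. Per the labels and the submitters' processing notes, reads were processed with STARsolo (STAR 2.7.8a), and the authors deposited raw UMI counts per gene and barcode for 2 libraries. They also deposited a normalized table (a signal, never negative) for 84 embryos, in which each count was divided by the embryo's total, multiplied by the smallest total (274491) and increased by 0.1. UMI counts were recovered from it: after removal of 0.1, 100% of values were whole within 0.0001. Means and SDs use normalized counts without the 0.1. Cluster, order and sex of embryos come from the study's supplementary tables, interval and cage from embryo names. The barcodes of the raw tables were not assigned to embryos. Positions are from Ensembl 115 (release 6 of the assembly, as used by the authors).

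The 7619 genes that reached 3 counts in 5 or more embryos were tested with edgeR 4.0.16 (quasi-likelihood F test, TMM factors; R 4.3.3), only the compared groups entering each fit. Calls required an adjusted p (Benjamini-Hochberg) under 0.01 and a log2 fold change over 1 in size. For sex and for the interval by cage term the adjusted p alone was required. Sex was fitted as a separate difference in each cluster, with a joint F test of these terms. In a simulation, 200 genes of 7619 were changed 4-fold, and 97.5% of them were recovered for cluster 5 against cluster 4, and 100% for the last cluster against cluster 7 and for 2 to 3 h against 0 to 1 h, with 0 false calls. The simulated counts had a single fixed dispersion, and only genes above a minimum mean count were changed. They lacked the spread of pseudo-time within a group, which is wide in the intervals. The recovery therefore checks the code and does not measure the power for the members. Alternatives were DESeq2 1.42.0, limma 3.58.1, library totals, other filters, a fit of all embryos, cage as a covariate, single cages, and left-out embryos. Named are all members, the 3 genes most like each, and per list and direction up to 3 called genes with the largest log2 fold change in the last cluster against cluster 1 and in 2 to 3 h against 0 to 1 h; a few others were named after their values were seen. Members and lists were chosen with earlier results of these data known. Embryos are separate animals of 1 line; intervals cover counting error only.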

Additional observations from a re-analysis of the deposited data

Results flagged for a closer look

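Embryos far from the rest of their cluster were searched for in 29 sets of a member and a cluster of 4 to 10 embryos. The measure was the gap to the nearest embryo over the range of the cluster at the 95% level, and 8 sets were flagged. That level assumes continuous, normally distributed values, which sparse counts are not. A set in which only 1 embryo has a UMI is always flagged. The number of flagged sets therefore cannot be compared with a chance rate. In cluster 7 the embryo at position 75 was the outlying one for en (24.1, next 4.90), gsb (32.4, next 7.08) and hh (7.52, next 2.72).

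The other 5 rest on 1 or 2 UMIs each. In cluster 3 they were en with 1 UMI (0.233, position 44), gsb with 1 UMI (1.00, position 41) and ci with 1 UMI (1.00, position 41, the shallowest embryo). In cluster 5 it was hh with 2 UMIs (0.492, position 55), and in cluster 6 it was en with 1 UMI (0.631, position 59).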

How the results depend on the processing

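No called difference of a member reversed direction. For 22 called differences of a member, 181 values under alternatives were computed, of which 169 kept direction and call and 12 kept direction only. For cluster 4 against cluster 3, the number of members called higher was 1, not 2, with all 84 embryos in 1 fit (wg, 1.93, adjusted p = 0.011) and with limma (ptc, 3.17, adjusted p = 0.027); leaving out each embryo of cluster 4 gave 2 each time. For cluster 7 against cluster 6 it was 4 with all 84 embryos in 1 fit and 0 with limma, against 1. For 2 to 3 h against 0 to 1 h it was 0 in cage A alone and 0 in cage B alone, against 1. For 2 to 3 h against 1 to 2 h it was 0 in cage B alone, and 3 with DESeq2, with cage as a covariate and in cage A alone, against 4. For 1 to 2 h against 0 to 1 h, 2 members (en and gsb) were called lower by DESeq2 and 2 in cage A alone, against 0. The cause was not tested.

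The onset moved to another cluster at 50% of the maximum for en (76), hh (76), gsb (76) and ci (73), and at 10% for wg (62) and ci (58). Scaled with TMM factors, gsb averaged 77.2 in the last cluster, against 70.9. By Spearman's rho, the 3 most alike genes shared 1 gene with those by Pearson's r for en, ptc and ci, and 0 for wg, hh and gsb. With library totals in place of TMM factors, the median of all genes was -0.42, against 0.04, in the last cluster against cluster 1, with 1429 genes higher and 2731 lower, against 2068 and 2016; all 6 members stayed called. It was -0.13 for 2 to 3 h against 0 to 1 h and -0.14 for 2 to 3 h against 1 to 2 h.

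Limits: before cluster 7, no embryo held more than 6 UMIs of en, hh or gsb, so that levels there have wide counting intervals. Cluster 4 has 3 embryos. No paired analysis was possible because the embryos carry no shared replicate numbers.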

Other observations

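inv, the paralogue of en beside it on 2R, was not among the genes of the normalized table, but it had UMIs in the raw libraries. Over the 122 barcodes with at least 250000 UMIs, which were not tied to embryos or groups, inv had 162 UMIs, found in 36 barcodes, and en had 5970 UMIs, found in 72. Per the paper, 122 embryos passed this threshold, among them unfertilized eggs and embryos older than 3 h. The authors left those out of the 84, so that the barcode counts do not describe the 84 embryos alone. The highest inv level was 14.4 UMIs per 1e6 UMIs of the barcode (UPM), and no barcode held more than 12 inv UMIs. In the 20 barcodes with 3 or more inv UMIs, en had 18.7, 211 and 393 UPM (lowest, median and highest). In the 86 barcodes without an inv UMI the median of en was 0 UPM and the highest 295. Of the 26 barcodes with at least 100 UPM of en, 22 had an inv UMI, and these 26 held 130 of the 162 inv UMIs.

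In cluster 1 the embryo at position 29, from the 1 to 2 h interval, had the highest level of ptc (12.5, 35 UMIs; the 28 others 0 to 2.71), of wg (3.20; others 0 to 1.35) and of ci (1.78; others 0 to 0.880). It also had the highest nkd (15.3; others 0 to 5.30), fz2 (13.9; others 2.05 to 9.99), pan (7.47; others 1.52 to 6.37) and twi (3.56; others 0 to 2.66). Among the pair-rule genes eve (1.07), run (1.42), opa (2.49) and slp2 (0.712) were highest there too, and the others were not. This embryo had 7127 genes with a UMI, against at most 7069 in the rest of cluster 1. It had 0 UMIs of hh and 1 of gsb. It was picked out after its values were seen.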
